A study of Mus musculus with 8 samples.

Results

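Transcripts of 32 listed genes of cholesterol synthesis, its control, and the uptake, transport and efflux of cholesterol were followed in mouse embryonic stem cells given siRNAs against a calcineurin transcript. The genes were chosen by symbol, and each was read from the brightest of its probe sets. Of the 32 genes, 29 had a value among the 19935 genes tested, and the expression of Acat2, Nr1h2 and Soat1 was not analysed here. The cells were R1, a mouse embryonic stem cell line, cultured under pluripotent conditions per the growth protocol, although the sample titles speak of differentiation. RNA was taken 48 hours after transfection from 3 samples with a control siRNA, 3 with siRNA 1 and 2 with siRNA 2, and each sample was put on 1 Affymetrix array. Both siRNAs were directed against CnAb1, one of the spliced forms of Ppp3cb, the gene of a catalytic subunit of the calcium-activated phosphatase calcineurin. The labels name no other agent or allele. Whether replicates came from separate cultures is not stated, so the spread behind each p-value is that between these samples and may be technical.

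Cells make cholesterol from acetyl-CoA through mevalonate, isoprenoid diphosphates, squalene and lanosterol. When membranes of the endoplasmic reticulum run low in sterol, the chaperone SCAP carries the SREBP transcription factors to the Golgi, where they are cleaved, and their released ends switch on the synthesis genes together with genes for uptake. INSIG proteins hold SCAP back when sterol is plentiful, while oxysterols activate the LXR receptors, which switch on the exporters of cholesterol. Dividing stem cells need sterol for new membrane, and side branches of the pathway supply the lipid anchors of small GTPases, ubiquinone and dolichol.

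No gene of the 29 passed the test in any comparison. Values are log2 expression, so a difference of 1 is a 2-fold change, and a gene was called at an adjusted p under 0.05 (limma's moderated test with Benjamini-Hochberg adjustment over all 19935 genes). For the average of the siRNA groups against the control group the percentage of all genes called was 0, and the members' adjusted p ran from 0.769 to 0.998. The 95% interval of this difference lay within a 1.5-fold change in either direction for all 29 members. The widest interval was that of the exporter Abca1, from -0.57 to 0.04, and the intervals of the other 28 members lay between -0.28 and 0.26. For this average, differences much larger than these are outside the intervals, whereas smaller ones could not be resolved with 8 arrays. With siRNA 2 alone the interval of Abca1 ran from -0.69 to 0.06 and so passed a 1.5-fold change.

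The medians of the arrays over the genes tested lay between 8.35 and 8.39 and their lower quartiles between 7.07 and 7.25. The probe set of Ppp3cb stood at 10.70, 10.55 and 10.64 in the control samples, 10.52, 10.68 and 11.09 with siRNA 1, and 11.07 and 11.16 with siRNA 2. It was higher by 0.31 for the average of the siRNA groups (SE 0.11, limma's unadjusted p = 0.0196, adjusted p = 0.769). The difference was 0.13 with siRNA 1 (SE 0.12) and 0.49 with siRNA 2 (SE 0.14, limma's unadjusted p = 0.0057, adjusted p = 0.794). Since nothing in the annotation ties this probe set to the CnAb1 variant, it does not check the knockdown. All 8 stem cell markers, among them Pou5f1, Sox2 and Nanog, were above the median of every array. Of 11 measured fibroblast markers 10 also were, and their mean log2 level was 8.81 to 8.94 in control, 8.88 to 9.10 with siRNA 1 and 8.94 to 8.95 with siRNA 2. For the average of the siRNA groups 9 of these 11 were higher, with a median difference of 0.122 and 0 called. So were all 5 hepatocyte markers, with a median of 0.100 and 0 called, while 43.9% of all genes were lower. At limma's unadjusted p under 0.05, 3 fibroblast markers and 1 hepatocyte marker were higher, against 3.28% of all genes. For 2 fibroblast markers and 1 hepatocyte marker all siRNA arrays lay above all controls, against 2.49% of all genes. Of the stem cell markers 4 of 8 were higher, with a median of -0.017, and of the macrophage markers 4 of 7, with a median of 0.011. The hepatocyte markers Alb, Ttr and Cyp7a1 were below the lower quartile of every array, and the mean of the 5 hepatocyte markers was 6.58 to 6.63, 6.61 to 6.78 and 6.63 to 6.76 in the same order. For 7 macrophage markers these means were 7.71 to 7.98, 7.81 to 8.08 and 7.83 to 7.89. The part of other cells in the results was not tested. In such bulk RNA a change in the number of cells of a type and one in RNA per cell cannot be told apart.

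The stretch before the start site of a gene holds the elements through which SREBP acts with the factor NF-Y, which binds the CCAAT box. Promoters from RefSeq (assembly GRCm38.p6) were found for 26 of the 32 listed genes, and the 250 bases before each start were searched on both strands for CCAAT and for CACNCCAC, a core of the sterol regulatory element. A gene was counted if any of its promoters held the motif, and some members had several promoters. CCAAT was present for 15 of 16 synthesis genes (93.8%) and 21 of all 26 (80.8%), against 37.5% of 27025 genes with a promoter. Counted by promoter, which is another unit, 33.8% of 32851 held it. CACNCCAC was present for Acat2, Hmgcs1 and Insig1 (11.5% of 26, and 12.5% of the 16 synthesis genes), against 6.05% of genes. By promoter the share was 5.29%. A match is a description of the letters, not of a bound site. Hmgcs1 and Insig1 are shown because they carry both motifs, and Msmo1, Nsdhl and Sc5d because they had the smallest unadjusted p of the synthesis genes. Capitals mark the motifs on either strand (CCAAT reads ATTGG on the other), and the sequences run 5′ to 3′ on the strand of the gene. In these 5 sequences no match of one motif overlaps one of the other.
Hmgcs1 (chr13:119690101-119690350, plus strand): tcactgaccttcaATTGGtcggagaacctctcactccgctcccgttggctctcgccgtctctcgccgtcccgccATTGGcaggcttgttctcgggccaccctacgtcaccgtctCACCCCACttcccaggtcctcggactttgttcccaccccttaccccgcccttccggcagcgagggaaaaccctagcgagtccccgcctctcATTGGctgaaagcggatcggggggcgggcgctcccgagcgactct
Insig1 (chr5:28071162-28071411, plus strand): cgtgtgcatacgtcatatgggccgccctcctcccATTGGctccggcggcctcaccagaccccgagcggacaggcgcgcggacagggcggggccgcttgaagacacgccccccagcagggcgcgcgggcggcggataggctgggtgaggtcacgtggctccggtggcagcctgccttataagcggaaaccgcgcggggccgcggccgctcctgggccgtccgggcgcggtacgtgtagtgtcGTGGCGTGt
Msmo1 (chr8:64733579-64733828, minus strand): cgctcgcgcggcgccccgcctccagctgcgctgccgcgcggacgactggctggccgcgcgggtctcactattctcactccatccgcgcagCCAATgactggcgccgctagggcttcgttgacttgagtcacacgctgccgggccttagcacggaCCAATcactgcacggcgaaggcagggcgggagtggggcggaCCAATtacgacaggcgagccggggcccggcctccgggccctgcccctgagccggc
Nsdhl (chrX:72918271-72918520, plus strand): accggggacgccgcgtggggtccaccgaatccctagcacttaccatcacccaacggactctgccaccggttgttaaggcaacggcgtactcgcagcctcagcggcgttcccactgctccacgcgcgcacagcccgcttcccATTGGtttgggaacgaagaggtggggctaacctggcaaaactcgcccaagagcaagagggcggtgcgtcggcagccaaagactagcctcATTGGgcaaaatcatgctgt
Sc5d (chr9:42264301-42264550, minus strand): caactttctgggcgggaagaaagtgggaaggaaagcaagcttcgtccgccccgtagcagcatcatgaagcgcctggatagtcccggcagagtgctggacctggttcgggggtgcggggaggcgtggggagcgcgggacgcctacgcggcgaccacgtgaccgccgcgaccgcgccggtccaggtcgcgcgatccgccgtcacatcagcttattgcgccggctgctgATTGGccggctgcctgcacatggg
Hmgcs1 has 3 CCAAT matches and 1 core, at 136 bases before the start. Insig1 has 1 CCAAT match, at 216 bases, and 1 core, at 9 bases. Msmo1 has 3 CCAAT matches, Nsdhl 2 and Sc5d 1, and none of these 3 windows holds the letters CACNCCAC.

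Of the 7 measured enzymes from HMG-CoA synthesis to the isoprenoid diphosphates, 5 were lower and 2 higher on average with the siRNAs, with a median difference of -0.010. That median was 0.011 without control replicate 1 and -0.046 without control replicate 3, and ran from -0.046 to 0.017 over all alternatives. Hmgcs1, which makes HMG-CoA, read 12.22, 12.13 and 12.13 in control, 12.18, 12.07 and 12.19 with siRNA 1, and 12.12 and 12.21 with siRNA 2. All 3 groups overlapped, and the difference of the average was -0.003 (SE 0.05), with a 95% interval from -0.12 to 0.11. Mvk, the mevalonate kinase, read 10.04, 10.02 and 9.94 in control, 9.94, 9.91 and 10.10 with siRNA 1, and 9.90 and 9.97 with siRNA 2. Its groups overlapped as well, and its difference was -0.04 (SE 0.06).

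Idi1, which interconverts the 5-carbon building blocks of the isoprenoids, read 11.71, 11.57 and 11.61 in control, 11.55, 11.66 and 11.56 with siRNA 1, and 11.55 and 11.43 with siRNA 2. Here 4 of 5 siRNA arrays were below the lowest control, with a difference of -0.09 (SE 0.06, unadjusted p = 0.149). Ggps1 makes geranylgeranyl diphosphate, a lipid anchor of proteins, on a branch that leads away from sterol. It read 9.81, 9.79 and 9.70 in control, 9.69, 9.62 and 9.52 with siRNA 1, and 9.57 and 9.76 with siRNA 2. The siRNA 1 arrays were all below the controls, whereas 1 of 2 siRNA 2 arrays lay among them, and the difference of the average was -0.13 (SE 0.06, unadjusted p = 0.0771, adjusted p = 0.769).

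The other enzymes of this stretch kept closer to control. Pmvk, which adds the second phosphate to mevalonate, was 9.16 ± 0.08 (SD, n = 3) in control, 9.22 ± 0.07 (n = 3) with siRNA 1 and 9.08 ± 0.06 (n = 2) with siRNA 2. Mvd, which decarboxylates mevalonate diphosphate, was 10.60 ± 0.05, 10.61 ± 0.12 and 10.66 ± 0.06 in the same order. Fdps, the farnesyl diphosphate synthase, was 12.14 ± 0.02, 12.16 ± 0.05 and 12.11 ± 0.03. For each of these 3 genes the control range contained arrays of the siRNA groups, and the differences of the average were -0.01, 0.03 and 0.00 (SE 0.06, 0.06 and 0.05).

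Of the 11 enzymes that build squalene and turn it into cholesterol, 9 were lower and 2 higher, with a median difference of -0.048, which ran from -0.073 to -0.007 over the alternatives. Nsdhl, Msmo1 and Sc5d, which act late, had the smallest unadjusted p of all 29 members. Nsdhl removes a carboxyl group at carbon 4 of the sterol ring and read 11.35, 11.33 and 11.26 in control, 11.24, 11.19 and 11.16 with siRNA 1, and 11.22 and 11.18 with siRNA 2. All 5 siRNA arrays were below all 3 controls, and the difference was -0.12 (SE 0.05, 95% interval -0.22 to -0.01, unadjusted p = 0.0335, adjusted p = 0.769). Among the 29 members Nsdhl was the only gene without overlap, in a direction that 2.25% of all genes took in this way, and no member lay wholly above (2.49% of all genes).

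Msmo1, the oxidase that attacks the methyl groups at carbon 4 just before Nsdhl acts, read 11.26, 11.22 and 11.22 in control, 11.19, 11.08 and 11.23 with siRNA 1, and 11.08 and 11.02 with siRNA 2. On 4 of 5 siRNA arrays, among them both of siRNA 2, its values were below the lowest control, and the difference was -0.12 (SE 0.05, unadjusted p = 0.0356, adjusted p = 0.769). Sc5d, which introduces the double bond at carbon 5, read 10.64, 10.55 and 10.55 in control, 10.62, 10.44 and 10.49 with siRNA 1, and 10.35 and 10.43 with siRNA 2. Again 4 of 5 siRNA arrays were below the lowest control, with a difference of -0.13 (SE 0.06, unadjusted p = 0.0473, adjusted p = 0.769).

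These 3 genes were the 3 members with an unadjusted p under 0.05 in the lower direction, against 3.03% of all genes, and no member had one in the higher direction, against 3.28%. Since 27 of the 29 members had a mean above that of the median gene, the brighter 9967 genes were also counted: 4.38% of them were lower at this unadjusted threshold, and 3.53% lay wholly below control. The count of members at this threshold depended on single arrays. It was 0 without control replicate 1 and 0 without control replicate 2, 1 without control replicate 3, siRNA 1 replicate 2 or siRNA 1 replicate 3, and 5 without siRNA 1 replicate 1. The count over all 19935 genes, in both directions, moved too. It was 1257 with all arrays, and 959, 443 and 953 without control replicates 1, 2 and 3 in turn. Without siRNA 1 replicates 1, 2 and 3 in turn it was 3589, 1163 and 935.

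**Figure D1:**
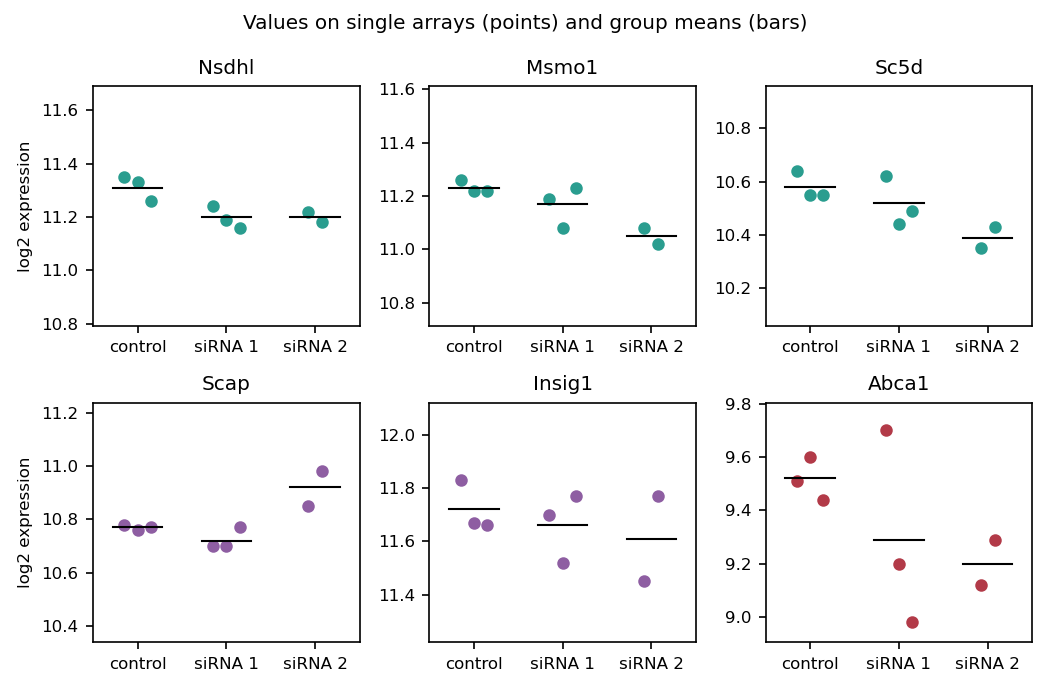
Log2 expression of 6 cholesterol genes on each array (points) with group means (bars), for control (3 arrays), siRNA 1 (3) and siRNA 2 (2); all panels span the same height on the log2 scale. Of the 6 genes Nsdhl alone has all siRNA points below all control points, the Scap points of siRNA 2 lie above the others, and the Abca1 points of siRNA 1 run from 8.98 to 9.70.

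Squalene epoxidase, Sqle, which takes the first oxygen-dependent step, read 11.50, 11.39 and 11.40 in control, 11.44, 11.37 and 11.48 with siRNA 1, and 11.33 and 11.45 with siRNA 2. The groups overlapped, and the difference was -0.02 (SE 0.05), with a 95% interval from -0.14 to 0.10. Fdft1, the squalene synthase that commits carbon to sterol, was 12.59 ± 0.01 (SD, n = 3) in control, 12.59 ± 0.10 (n = 3) with siRNA 1 and 12.61 ± 0.07 (n = 2) with siRNA 2. Lss, which closes the rings to lanosterol, was 11.46 ± 0.03, 11.40 ± 0.03 and 11.48 ± 0.06 in that order.

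Cyp51, the demethylase at carbon 14, was 10.41 ± 0.09 (SD, n = 3) in control, 10.36 ± 0.13 (n = 3) with siRNA 1 and 10.28 ± 0.12 (n = 2) with siRNA 2, a difference of the average of -0.09 (SE 0.07). Hsd17b7, the reductase that follows Nsdhl, differed by -0.05 (SE 0.07), and Dhcr7, the reductase of the last step of one arm, by -0.05 (SE 0.06). Tm7sf2, a sterol reductase at carbon 14, differed by 0.01 (SE 0.05), and Ebp, the isomerase that moves a ring double bond, by -0.001 (SE 0.06). In these 5 genes at least 1 siRNA array lay inside the control range or on its other side.

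**Figure D2:**
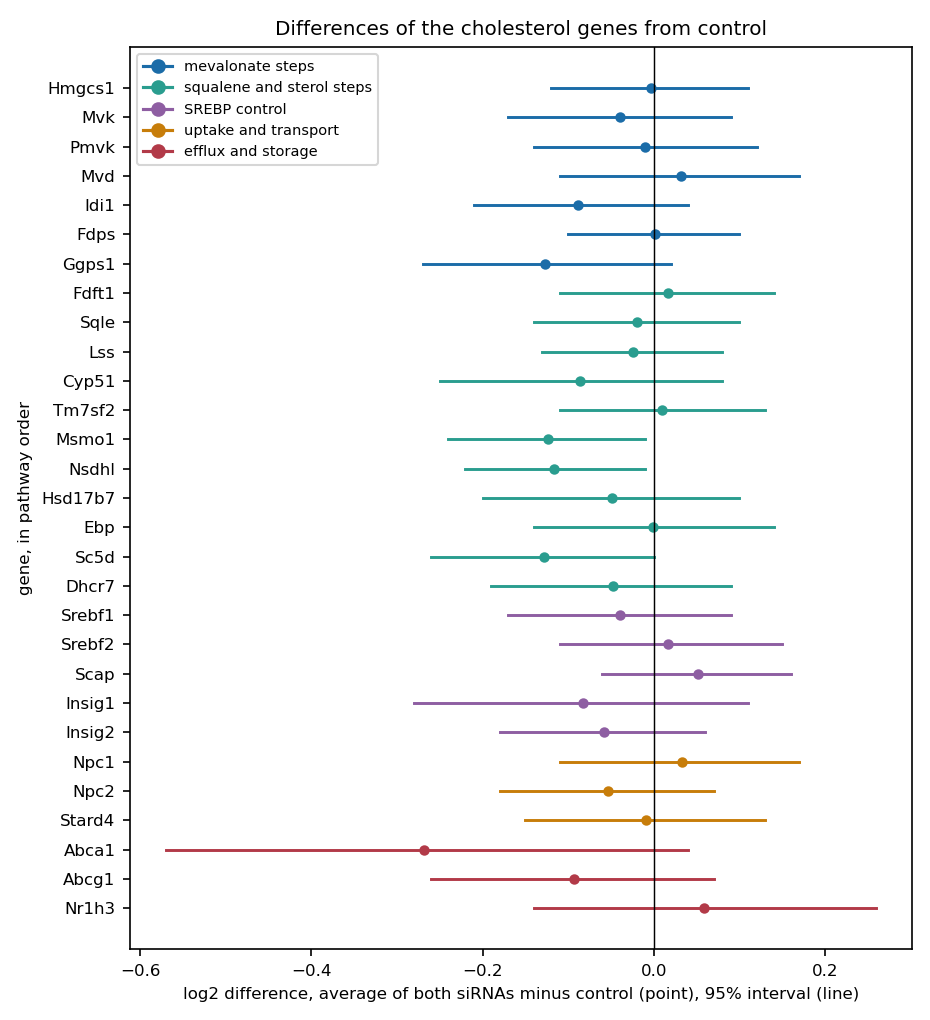
Log2 difference of the average of both siRNA groups from control (point) with the 95% interval of the model (line) for 29 genes in pathway order, coloured by role. Intervals of Nsdhl and Msmo1 end at -0.01, that of Abca1 is the widest (-0.57 to 0.04), and no gene passed the adjusted threshold.

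The sensors and switches of the pathway gave 2 higher and 3 lower genes of 5, with a median difference of -0.040, which ran from -0.061 to 0.001 over the alternatives. Srebf2, which encodes the SREBP that mainly drives cholesterol synthesis, read 11.51, 11.39 and 11.41 in control, 11.37, 11.36 and 11.44 with siRNA 1, and 11.43 and 11.61 with siRNA 2. It differed by 0.02 (SE 0.06). Srebf1, whose products lean to fatty acid synthesis, was 9.90 ± 0.04 (SD, n = 3) in control, 9.87 ± 0.12 (n = 3) with siRNA 1 and 9.85 ± 0.01 (n = 2) with siRNA 2.

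Scap, the escort of SREBP, read 10.78, 10.76 and 10.77 in control, 10.70, 10.70 and 10.77 with siRNA 1, and 10.85 and 10.98 with siRNA 2. Its control arrays had an SD of 0.01 (n = 3), the siRNA 2 arrays were above all others and the siRNA 1 arrays were level with control or below. The difference of the average was therefore small, at 0.05 (SE 0.05), with siRNA 2 at 0.15 (SE 0.06, unadjusted p = 0.0339, adjusted p = 0.812) and siRNA 1 at -0.05 (SE 0.05).

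Insig1, which retains SCAP and is itself switched on by SREBP, read 11.83, 11.67 and 11.66 in control, 11.70, 11.52 and 11.77 with siRNA 1, and 11.45 and 11.77 with siRNA 2. The siRNA 2 arrays had an SD of 0.23 (n = 2), with 1 below all controls and 1 among them, and the difference of the average was -0.08 (SE 0.09). Insig2, the isoform that does not depend on SREBP in the same way, read 10.11, 10.02 and 9.94 in control, 10.04, 9.99 and 9.93 with siRNA 1, and 9.93 and 9.94 with siRNA 2, a difference of -0.06 (SE 0.05).

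The 3 genes of uptake and transport inside the cell had a median difference of -0.009, which changed sign over the alternatives, from -0.043 to 0.035. Npc1, which moves lipoprotein cholesterol out of the lysosome, read 11.45, 11.39 and 11.40 in control, 11.48, 11.44 and 11.28 with siRNA 1, and 11.41 and 11.58 with siRNA 2, a difference of 0.03 (SE 0.06). Its soluble partner Npc2 read 10.62, 10.55 and 10.51 in control, 10.65, 10.47 and 10.60 with siRNA 1, and 10.42 and 10.47 with siRNA 2. Both siRNA 2 arrays of Npc2 were below control while those of siRNA 1 lay on either side, and the average differed by -0.05 (SE 0.06). Stard4, a cytosolic sterol carrier and SREBP target, read 9.59, 9.48 and 9.45 in control, 9.58, 9.40 and 9.49 with siRNA 1, and 9.43 and 9.57 with siRNA 2, and differed by -0.01 (SE 0.06).

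Efflux was represented by Abca1, which hands cholesterol to apolipoprotein A-I, Abcg1, which passes it to mature HDL, and Nr1h3, the LXR alpha receptor that induces both. Abca1 read 9.51, 9.60 and 9.44 in control, 9.70, 9.20 and 8.98 with siRNA 1, and 9.12 and 9.29 with siRNA 2. On 4 of 5 siRNA arrays it was below the lowest control, and siRNA 1 replicate 1 was above the highest. The difference of the average was -0.27 (SE 0.14, unadjusted p = 0.0775, adjusted p = 0.769), the most negative of the 29 members. It was -0.368 without siRNA 1 replicate 1 and -0.190 without siRNA 1 replicate 3, and -0.135 with the arrays' lower quartiles as a covariate. Over all alternatives it ran from -0.423 to -0.135. With siRNA 1 alone the difference was -0.22 (SE 0.15), and with siRNA 2 alone -0.31 (SE 0.17, 95% interval -0.69 to 0.06).

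The spread of Abca1 lay in the siRNA 1 group, with an SD of 0.37 (n = 3) against 0.08 in control (n = 3) and 0.12 with siRNA 2 (n = 2). When limma weighted the arrays by their fit, siRNA 1 replicate 3 received a weight of 3.56, against 0.308 and 0.411 for siRNA 1 replicates 1 and 2. Under these weights Abca1 was called lower with siRNA 1, at -0.46 (adjusted p = 0.0315), and so was Ggps1, at -0.21 (adjusted p = 0.0461). That setting called 1436 of the 19935 genes for siRNA 1, against 0 in the unweighted fit. The share of the 29 members called under these weights, 2 genes, was thus close to that of all genes.

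Abcg1 read 9.94, 9.87 and 9.77 in control, 9.95, 9.66 and 9.80 with siRNA 1, and 9.65 and 9.80 with siRNA 2. Its values spread over both sides of the lowest control, and the difference was -0.09 (SE 0.07). Nr1h3 read 7.96, 7.94 and 7.81 in control, 7.69, 8.09 and 8.03 with siRNA 1, and 8.04 and 7.93 with siRNA 2, a difference of 0.06 (SE 0.09). Over the arrays the values of Nr1h3 thus spanned a range of 0.40 and those of Abca1 one of 0.71, whereas the range of a synthesis gene was at most 0.31.

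Synthesis genes were then set beside the members with other roles. Of 18 synthesis genes 14 were lower and 4 higher on average, with a median of -0.031, and of the 11 other members 7 were lower and 4 higher, with a median of -0.040. Over all genes tested the median was 0.011 and 43.9% were lower, while over the brighter genes it was -0.017 and 60.5% were lower. Both medians of the members were below that of the brighter genes, and no difference between these lists was tested. These medians depended on single arrays. Leaving out control replicate 1 gave a synthesis median of -0.012, leaving out siRNA 1 replicate 2 gave -0.015, siRNA 2 replicate 1 gave -0.016 and siRNA 2 replicate 2 gave -0.052. For the other members it was -0.014, -0.005 and -0.003 without the first 3 of these arrays, and -0.061 without control replicate 3. The count of lower synthesis genes was 10 of 18 without control replicate 1, 9 with array weights, 12 with repeated quantile normalization and 16 with arrays centred on their medians.

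**Figure D3:**
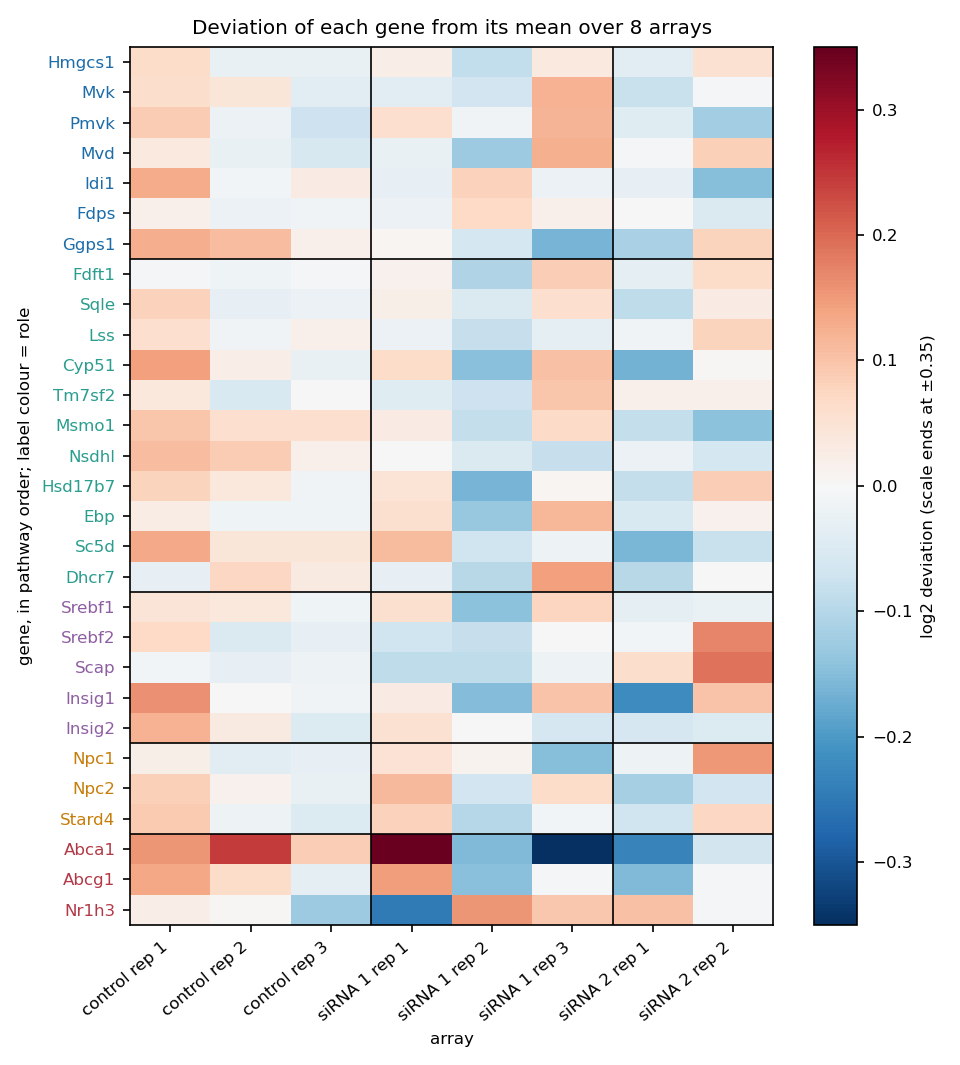
Deviation of each of 29 genes (rows, in pathway order, label colour by role) from its own mean over 8 arrays (columns), on the log2 scale, with red higher and blue lower; the colour scale ends at ±0.35, which Abca1 reaches or passes on siRNA 1 replicates 1 and 3. Whole columns share a tint: control replicate 1 is mostly red, and siRNA 1 replicate 2 and siRNA 2 replicate 1 are mostly blue.

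The members' deviations also differed between arrays of the same group, and the shares of array and group in their variation were not estimated. The median deviation of the 18 synthesis genes from their own means was 0.070, -0.010 and -0.005 on the control arrays, 0.016, -0.076 and 0.062 with siRNA 1, and -0.045 and 0.009 with siRNA 2. High and low arrays thus occurred within the same group. Control replicate 1 held the highest value of 11 of the 29 members and siRNA 1 replicate 3 that of 8. Array siRNA 1 replicate 2 held the lowest value of 12, and siRNA 2 replicate 1 was below the gene's own mean for 26.

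The 11 other members had medians of 0.087, 0.003 and -0.026 on the control arrays, 0.052, -0.087 and -0.004 with siRNA 1, and -0.054 and -0.002 with siRNA 2. The 2 kinds of members stood furthest apart on siRNA 1 replicate 3, at 0.062 for synthesis and -0.004 for the others. The brighter genes of the whole array had medians of 0.026, 0.009 and -0.006, then 0.044, -0.047 and 0.005, then -0.035 and 0.010. The arrays with low medians of the brighter genes, siRNA 1 replicate 2 and siRNA 2 replicate 1, were also those with the highest lower quartiles, 7.25 and 7.19, and those on which the members were lowest. The part of this array pattern in the differences was not tested. Lower quartiles were 7.14, 7.08 and 7.11 in control, 7.07, 7.25 and 7.17 with siRNA 1, and 7.19 and 7.11 with siRNA 2. Because the highest were on siRNA arrays, a fit with the lower quartile as a covariate cannot fully separate array from group. In that fit 12 of 18 synthesis genes were lower, the synthesis median was -0.014 and the median of the squalene and sterol steps was -0.008.

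**Figure D4:**
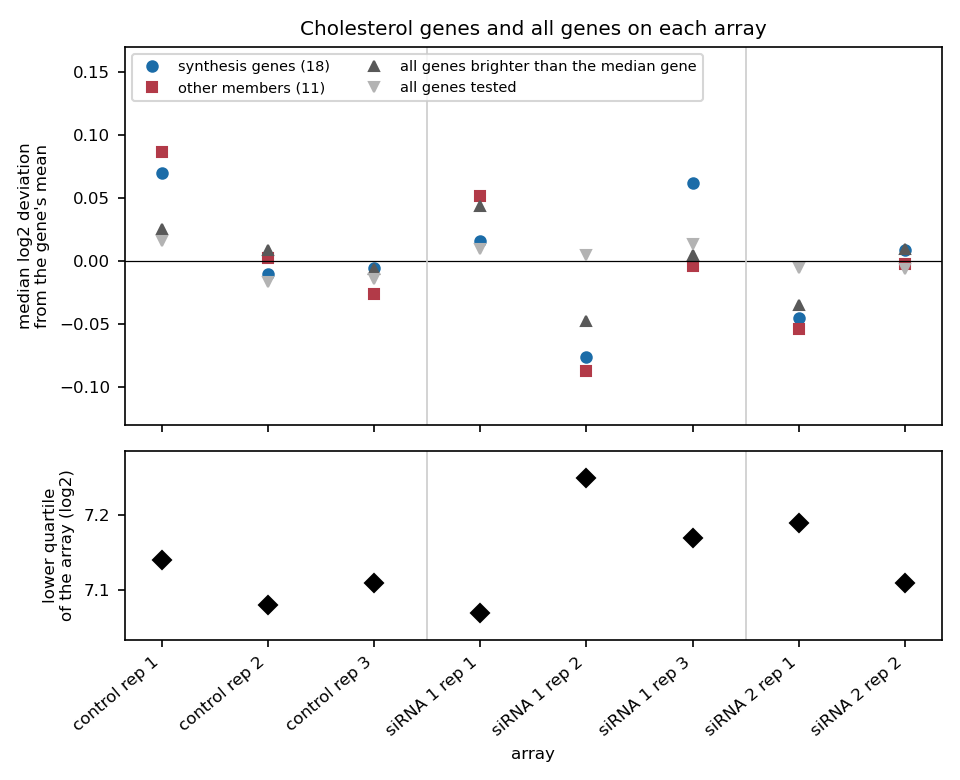
Upper panel, median log2 deviation from the gene's own mean on each array for 18 synthesis genes, 11 other members, all genes brighter than the median gene and all genes tested; lower panel, lower quartile of each array on the log2 scale. The synthesis median is highest on control replicate 1 (0.070) and lowest on siRNA 1 replicate 2 (-0.076), the array with the highest lower quartile (7.25).

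The spread of the members was close to that of other genes. The range over the 8 arrays had a median of 0.24 for the 29 members, 0.24 for the brighter genes and 0.26 for all genes. The median SD within groups was 0.075 for the members and 0.085 for all genes. Fdps had the smallest range, 0.12, and Abca1 the largest, 0.71.

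Each siRNA was also compared with control on its own; both comparisons use the same 3 control arrays, so their differences are not independent. With siRNA 1, 21 of 29 members were lower and 8 higher, with a median of -0.030, and 0 were called (percentage of all genes called 0). Thus 72.4% of the members were lower, against 41.4% of all genes and 56.0% of the brighter ones. Nsdhl, at -0.12 (SE 0.05, unadjusted p = 0.0468, adjusted p = 0.870), was the only member at an unadjusted p under 0.05 in the lower direction, against 2.30% of all genes and 3.45% of the brighter ones, and none was in the higher direction, against 3.03%. All siRNA 1 arrays were below control for 3 members, Ggps1, Lss and Nsdhl, against 4.56% of all genes and 7.20% of the brighter genes, and above for none, against 6.21% and 4.39%. All 5 genes of SREBP control were lower, by small amounts, with a median of -0.046 and none past the unadjusted threshold.

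With siRNA 2, 20 of 29 members were lower and 9 higher, with a median of -0.050, and again 0 were called (percentage of all genes called 0). Here 69.0% of the members were lower, against 47.1% of all genes and 60.7% of the brighter ones. Msmo1, at -0.18 (SE 0.06, unadjusted p = 0.0171, adjusted p = 0.812), and Sc5d, at -0.19 (SE 0.07, unadjusted p = 0.0206, adjusted p = 0.812), were at an unadjusted p under 0.05 in the lower direction, against 3.52% of all genes and 5.43% of the brighter ones. Scap was so in the higher direction, against 2.56%. Both siRNA 2 arrays were below all controls for 7 members (Idi1, Msmo1, Nsdhl, Sc5d, Srebf1, Npc2 and Abca1), against 15.9% of all genes and 25.0% of the brighter genes, and above for Scap, against 13.4% and 10.5%. With 2 arrays on one side, an absence of overlap was thus common among all genes.

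**Figure D5:**
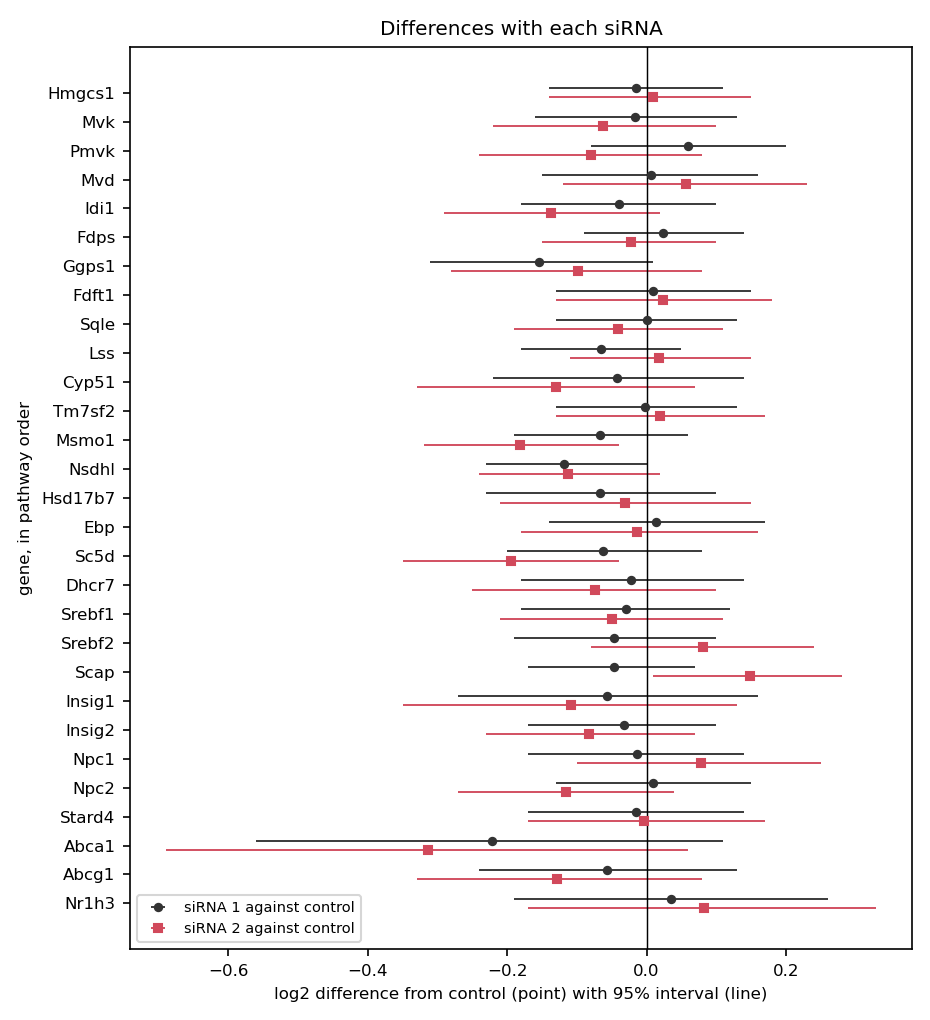
Log2 difference from control (point) with 95% interval (line) for 29 genes in pathway order, siRNA 1 in dark circles and siRNA 2 in red squares; both share the 3 control arrays. Scap is at -0.05 with siRNA 1 and 0.15 with siRNA 2, Msmo1 at -0.07 and -0.18, and most intervals of the 2 siRNAs overlap widely.

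A direct comparison of siRNA 2 with siRNA 1 gave 13 higher and 16 lower members and 0 called (percentage of all genes called 0). The share of lower genes was 55.2% for the members, 55.5% for all genes and 54.4% for the brighter genes. Scap had the largest difference, 0.19 (SE 0.06, 95% interval 0.06 to 0.33, unadjusted p = 0.00949, adjusted p = 1 in limma's test). It was the only member at an unadjusted p under 0.05 in the higher direction, against 1.45% of all genes, and none was in the lower direction, against 3.02%. The siRNA 2 arrays were wholly above siRNA 1 for Lss and Scap, against 5.54% of all genes, and wholly below for Pmvk and Sc5d, against 9.89%. Pmvk differed by -0.14 (SE 0.07) and Sc5d by -0.13 (SE 0.07), and Nsdhl, the gene without overlap against control, by 0.00 (SE 0.06, interval -0.13 to 0.13).

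Further genes of the pathway outside the 29 were read from 6 lists with 45 genes, of which 41 were measured and 0 were called in any comparison. For the average of the siRNA groups 26 were lower and 15 higher, with a median of -0.024, so 63.4% were lower, against 43.9% of all genes and 60.5% of the brighter ones. At an unadjusted p under 0.05 (limma) 2 were lower and 1 higher, against 3.03% and 3.28% of all genes. The isoprenoid branch enzymes, which use the same precursors as sterol, gave 7 lower of 8, with a median of -0.042. Pdss2, a subunit of the synthase for the ubiquinone tail, was 9.26 ± 0.06 (SD, n = 3) in control, 9.07 ± 0.10 (n = 3) with siRNA 1 and 9.06 ± 0.10 (n = 2) with siRNA 2. Each of the 5 siRNA arrays lay below all controls for Pdss2, as for 2.25% of all genes, with a difference of -0.19 (SE 0.06, unadjusted p = 0.00993, adjusted p = 0.769). Pggt1b, the subunit that recognises substrates of geranylgeranyl transfer, differed by -0.14 (SE 0.06).

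The 10 fatty acid targets of SREBP gave 7 lower and 3 higher, with a median of -0.016. Me1, which supplies NADPH, and Acaca, the acetyl-CoA carboxylase, both differed by -0.15 (SE 0.07 and 0.09). Of 6 genes for lipoprotein receptors or proteins that handle them 3 were lower and 3 higher. The chaperone Lrpap1 was at 0.08 (SE 0.06) and the receptor Lrp1 at -0.11 (SE 0.10). The 4 genes of SREBP cleavage and sterol-driven degradation had a median of 0.012, with Erlin1 at 0.04 (SE 0.07) and the ubiquitin ligase Rnf139 at -0.03 (SE 0.07).

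Among 9 genes of sterol transfer and ester hydrolysis 6 were lower and 3 higher. Gramd1a, which carries cholesterol from the plasma membrane to the endoplasmic reticulum, differed by 0.15 (SE 0.07, unadjusted p = 0.043, adjusted p = 0.769 in limma's test), and Lipa, the lysosomal lipase, by -0.17 (SE 0.12). The 4 oxysterol enzymes divided evenly, with Cyp7b1 at -0.12 (SE 0.06) and Cyp27a1 at -0.04 (SE 0.06).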

How the data were processed

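Total RNA of 8 samples was hybridised to Affymetrix arrays. The deposited values are log2 probe-set summaries that the authors made by RMA, as the submitters' processing notes name it; the sources used here give neither its version nor the array library. This method normalizes between arrays, so a shift shared by most genes would not appear. Of 28815 probe sets 21780 had 1 gene symbol, 1605 several and 5430 none in the platform annotation table used; the 21780 gave 19935 genes, 998 with several probe sets (the brightest was kept; Idi1 and Fdft1 among the members). RefSeq identifiers matched 21689 and changed 0 symbols.

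A model with 1 mean per group was fitted to all 8 arrays with limma 3.58.1 (R 4.3.3; lmFit, eBayes). P-values are two-sided. SDs are over arrays, and SEs and 95% intervals come from the model. The procedure was run on simulated data with changes larger than any member's difference and with noise independent between genes. That run therefore does not bear on differences as small as those of the members, or on shifts shared across an array. Tables and figures used Python 3.11.15, pandas 2.3.3, numpy 2.4.6 and matplotlib 3.10.9. Members, lists and tests were chosen with earlier results of these data known, and a list's count and median are descriptions without a test. Every measured member is named; values on every array are given for the 3 members of each role with the smallest unadjusted p and for Hmgcs1, Sqle, Srebf2, Insig1 and Abca1, and of each further list the 2 genes with the smallest p are named. Deviations of arrays with the same replicate number correlated between -0.547 and 0.219. Being taken from means of groups of 2 or 3 arrays, these deviations cannot show whether replicate numbers mark batches. The samples were treated as unpaired, and a replicate block was among the alternatives.

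Alternatives were repeated quantile normalization, median centring, a filter at the median gene, array weights, moderation with a trend and robustness, averaging or keeping all probe sets of a gene, only the groups compared, a replicate block, the lower quartile as a covariate, and leaving out arrays.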

Additional observations from a re-analysis of the deposited data

How the results depend on the processing

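Over the 18 alternatives tried for the average of the siRNA groups, 0 of the 520 member results were called, 464 kept their sign and 56 did not, and 13 members kept it in every alternative. The median of synthesis genes ran from -0.052 to 0.001. Array weights called 14 genes for the average and 1436 for siRNA 1, 2 of them members; trend and robust moderation called 3 genes between the siRNAs; with the replicate block 0 genes were called in each comparison and the synthesis median was -0.026. The members that changed sign had differences between -0.05 and 0.06, and the cause was not tested. With repeated quantile normalization Hmgcs1 was 0.005, Pmvk 0.006, Tm7sf2 -0.009, Ebp 0.030 and Stard4 0.022. With median centring Fdps was -0.010 and Tm7sf2 -0.002. With array weights Hmgcs1 was 0.024, Mvk 0.015, Pmvk 0.034, Sqle 0.011, Ebp 0.042, Npc1 -0.005 and Stard4 0.009. With the lower quartile as a covariate Hmgcs1 was 0.020, Fdps -0.025, Hsd17b7 0.009, Ebp 0.041, Srebf1 0.001, Stard4 0.035 and Nr1h3 -0.038. With probe sets averaged per gene Fdft1 was -0.002, and with the replicate block Ebp was 0.010. Without siRNA 1 replicates 1 and 2 Hmgcs1 was 0.017, Mvk 0.018, Pmvk 0.022, Fdps -0.001, Sqle 0.003, Ebp 0.051, Dhcr7 0.021 and Npc1 -0.027. Leaving out each array in turn gave -0.026 to 0.027 for Hmgcs1, -0.046 to 0.035 for Pmvk, -0.00033 to 0.061 for Mvd, -0.011 to 0.012 for Fdps, -0.008 to 0.043 for Fdft1, -0.049 to 0.015 for Sqle, -0.016 to 0.028 for Tm7sf2, -0.026 to 0.036 for Ebp, -0.029 to 0.063 for Srebf2, -0.009 to 0.075 for Npc1 and -0.043 to 0.032 for Stard4. Of the members Tm7sf2 and Nr1h3 were dimmer than the median gene; what limits the calls was not tested.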
